A study of Mus musculus with 16 samples.

Results

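Trp53 and 8 of its known target genes were followed in a mouse acute myeloid leukaemia line as doxycycline was given and then withdrawn. The 9 genes were Trp53, Cdkn1a, Mdm2, Ccng1, Trp53inp1, Sesn1, Phlda3, Zmat3 and Aen, chosen by name as p53 and textbook members of its response, and all 9 were among the 13652 genes counted. The cells were AML246 cells, grown with interleukin-3, and per the series title the drug schedule restores PU.1, the product of the myeloid regulator gene Spi1, and then knocks it down again. The 16 RNA-seq libraries formed 8 groups of 2: no treatment (day 0), doxycycline at 0.1 µg/mL for 4, 8 or 12 days, a Cd11b-high sort taken on day 12, and withdrawal for 4, 8 or 12 days, on days 16, 20 and 24 of the course. All groups other than the Cd11b-high sort were total viable cells, and every withdrawn group had first received 12 days of the drug. The labels do not give the Trp53 genotype of the line, do not state whether A and B came from separate cultures, and do not describe the doxycycline-responsive construct. Transcripts were counted per gene, so neither p53 protein nor the exons covered by the reads were measured.

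p53 is a transcription factor that is kept low in unstressed cells by the ubiquitin ligase Mdm2 and is stabilised after DNA damage, oncogene activity or ribosomal stress. It binds DNA through paired half-sites and raises genes that stop the cell cycle, repair DNA, change metabolism or lead to cell death, among them Mdm2 itself, which closes a feedback loop. Loss of p53 function is a recurrent event in myeloid leukaemia, where it goes with resistance to treatment.

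The 250 bases upstream of 4 of the genes are shown as examples with 0, 1 or 2 matches to the p53 half-site. Whether this number goes with the course of a gene was not tested. Sequences are from RefSeq (GRCm38.p6), 5′ to 3′ on the gene's strand, with each match to the p53 half-site consensus in capitals. The stretch of Cdkn1a lies at chr17:29090729-29090978 on the plus strand and that of Ccng1 at chr11:40755287-40755536 on the minus strand. That of Trp53 lies at chr11:69580109-69580358 and that of Phlda3 at chr1:135765835-135766084, both on the plus strand. Distances are counted from the start that each window uses, which for Ccng1 and Trp53 lies inside the gene span given below.
Cdkn1a: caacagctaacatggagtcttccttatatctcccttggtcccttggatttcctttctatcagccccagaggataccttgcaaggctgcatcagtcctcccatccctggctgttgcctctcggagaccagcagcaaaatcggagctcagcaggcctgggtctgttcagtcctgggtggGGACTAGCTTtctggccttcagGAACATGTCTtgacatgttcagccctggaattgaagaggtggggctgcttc
Ccng1: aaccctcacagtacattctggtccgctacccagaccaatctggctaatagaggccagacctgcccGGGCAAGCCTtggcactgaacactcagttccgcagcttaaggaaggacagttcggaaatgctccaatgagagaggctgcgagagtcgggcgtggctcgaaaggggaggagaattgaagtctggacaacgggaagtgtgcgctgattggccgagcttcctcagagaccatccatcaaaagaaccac
Trp53: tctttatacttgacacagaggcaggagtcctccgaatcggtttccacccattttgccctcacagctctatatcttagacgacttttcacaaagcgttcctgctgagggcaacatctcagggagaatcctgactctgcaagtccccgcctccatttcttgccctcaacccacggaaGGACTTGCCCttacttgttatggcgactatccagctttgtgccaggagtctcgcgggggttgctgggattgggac
Phlda3: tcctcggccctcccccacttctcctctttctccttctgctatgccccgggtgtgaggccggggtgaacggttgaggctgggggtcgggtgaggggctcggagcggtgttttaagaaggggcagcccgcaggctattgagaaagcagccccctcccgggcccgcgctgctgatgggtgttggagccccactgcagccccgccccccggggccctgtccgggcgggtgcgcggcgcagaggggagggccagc

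Cdkn1a had 2 half-sites, which began 73 and 51 bases before the start, GGACTAGCTT and GAACATGTCT. Ccng1 had GGGCAAGCCT, which began 185 bases before its start, and Trp53 had GGACTTGCCC, which began 75 bases before. Phlda3 had none in its window. RefSeq windows of 300 bases (250 before and 50 after a start) were matched for 7 of the 9 genes, as 10 windows. At least 1 half-site on either strand was in 7 of these 10, from 6 of the 7 genes. Among all 32851 windows of this length, 8.36% held a half-site. The windows of Aen overlap each other, so a site may be counted in both. The Cdkn1a window shown was the only one of the 10 with 2 full half-sites separated by 0 to 13 bases, an arrangement found in 0.073% of all windows, and Ccng1 had such a pair when 1 mismatch was allowed, as did 1.093% of all windows. The letters GAGGAA or TTCCTC, a core of the PU.1 motif, were in 1 of the 10 windows, that of Ccng1, and in 28.28% of all windows. A match is a description of letters in this window, not a site of binding or a cause.

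Total counts ran from 12962801 to 26509803 per library, and each level below is in CPM, the read count scaled to the size and composition of its library. Spi1 stood at 222 ± 4.72 CPM after 12 days of doxycycline, against 61.5 ± 6.69 CPM at day 0, and at 46.0 ± 12.5 CPM 12 days after withdrawal (SD, n = 2 each). The 2 libraries of 12 days off differed from each other more than any other pair, with a chi-square per degree of freedom of 73.5, against 2.97 at day 12. Of the 10 neutrophil markers held, 10 were higher at day 12 than at day 0 and 10 lower at 12 days off than at day 12. Their summed level was 35.7 to 45.2 CPM at day 0 and 2290 to 2915 CPM at day 4. It was 926 to 1043 CPM at day 8 and 755 to 770 CPM at day 12, so it fell while the drug was present. After withdrawal it was 440 to 476 CPM at 4 days and 37.3 to 42.4 CPM at 12 days. Between day 12 and day 4, 3 markers were higher and 5 lower, where 14.7% of all genes were higher and 12.3% lower. Of all genes, 30% were higher and 33.4% lower at day 12 than at day 0, and 28.2% higher and 31% lower at day 4. At 12 days off against day 12, these shares were 32.9% and 32.4%. Of 7 macrophage and monocyte markers, 5 were higher at day 12 than at day 0, with summed levels of 425 to 459 CPM against 77.0 to 95.0 CPM. For the 8 eosinophil markers the count was 7, with sums of 8543 to 9528 CPM against 2092 to 5219 CPM, but at day 4 against day 0 there were 2 higher and 4 lower, with sums of 219 to 259 CPM. Of 6 basophil and mast cell markers, 6 were lower at day 4 than at day 0, and 2 were higher and 3 lower at day 12. All 3 erythroid markers were lower at day 4 than at day 0. Of 8 markers of myeloid leukaemia and progenitor cells, 6 were higher and 2 lower (Mpo and Myb) at day 12 than at day 0. At day 0, Myb stood at 1208 CPM, Mpo at 601, Csf2rb at 466, Kit at 125, Spi1 at 61.5 and Cd34 at 27.3 CPM, while the last 2 of the list were near or at 0. Cd33 had 0 reads in both libraries at day 0 and at 12 days off, and Ptprc, which encodes the leukocyte antigen CD45, had 2 and 3 reads at day 0. Mitochondrial transcripts took 6.35% and 7.36% of the reads at day 0 and 2.02% to 3.59% in all other libraries. The part of cell maturation, read share or time in culture in the results below was not tested, and in bulk RNA fewer cells of a type and less RNA per cell cannot be told apart.

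The 9 genes did not move together. Trp53 and Phlda3 were low on doxycycline, and Aen was lower than at day 0 at days 4 and 8 but was not called at day 12. All 3 were highest 12 days after withdrawal. Trp53inp1 and Ccng1 were higher in all libraries on doxycycline than in all libraries off it, with their highest levels at day 4. Cdkn1a was higher than at day 0 at every later time, Mdm2 and Sesn1 varied little, and Zmat3 was at the limit of detection. Each of the 9 differed among the 8 groups (edgeR quasi-likelihood F test, Benjamini-Hochberg adjusted p under 0.05), as did 83.8% of all genes. Nothing is read from this for Zmat3, which is listed through its highest libraries. The ratio of the highest to the lowest group mean was 4.61 for Trp53, 4.17 for Phlda3, 3.31 for Aen, 3.24 for Trp53inp1 and 3.22 for Cdkn1a, and 1.60, 1.53 and 1.47 for Ccng1, Sesn1 and Mdm2. The median of this ratio over all genes was 2.14, so 5 of these 8 varied more than the median gene and 3 less.

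**Figure D1:**
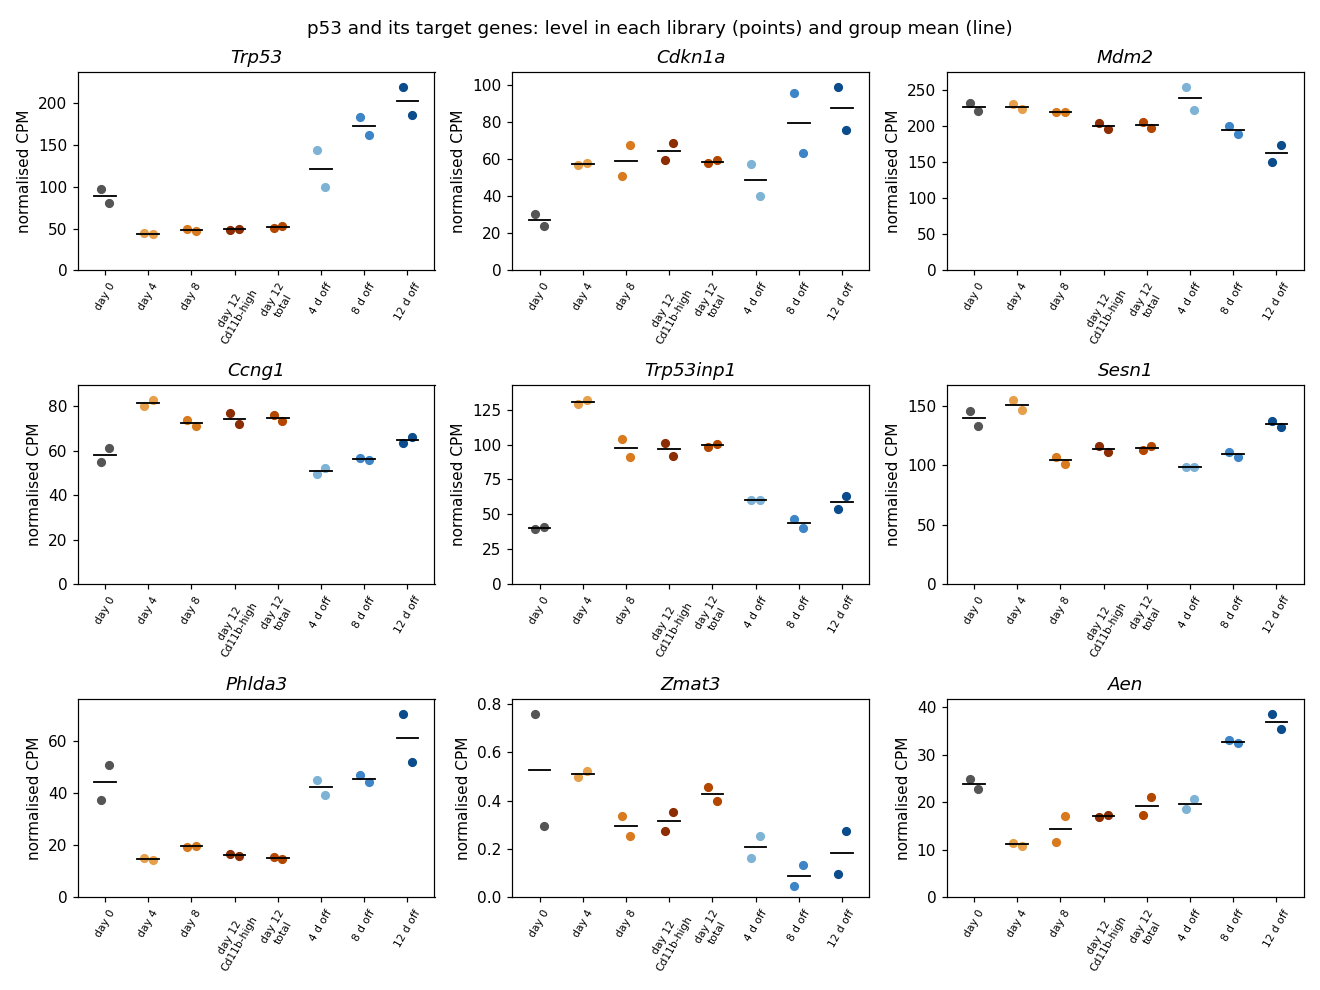
Normalised CPM (y axis, linear from 0) of each of the 9 genes in the 16 libraries (points) of the 8 groups (x axis), with the group mean of 2 libraries as a line. Trp53 sits between 42.9 and 52.99 CPM in all libraries on doxycycline and reaches 219 CPM after withdrawal, while Trp53inp1 is highest at day 4 and Zmat3 never exceeds 0.761 CPM.

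Trp53 (Entrez 22059, chromosome 11, 69580348 to 69591873, plus strand, GRCm38) had 97.4 and 80.8 CPM in the 2 libraries of day 0. It had 44.8 and 42.9 CPM at day 4, 49.5 and 46.9 CPM at day 8, and 50.7 and 52.99 CPM at day 12. After withdrawal it had 144 and 99.3 CPM at 4 days, 183 and 161 CPM at 8 days and 219 and 185 CPM at 12 days. All libraries on doxycycline were below both day 0 libraries, and all libraries after withdrawal were above both. At day 12 the transcript was 1.72-fold lower than at day 0, a log2 fold of -0.78 ± 0.15 (SE; edgeR adjusted p = 0.000379). It was already lower at day 4, when the log2 fold against day 0 was -1.02 ± 0.15 (edgeR adjusted p = 3.99e-05), and the small upward difference of day 12 against day 4 was not called (log2 fold 0.24 ± 0.15, edgeR adjusted p = 0.257), though it was in a fit of the 4 libraries alone (edgeR adjusted p = 0.0439).

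After withdrawal Trp53 did not settle at its starting level. It was 3.90-fold higher at 12 days off than at day 12 (log2 fold 1.96 ± 0.15, edgeR adjusted p = 5.68e-08). Against day 0 it was 2.27-fold higher (log2 fold 1.18 ± 0.15, edgeR adjusted p = 2.38e-05), with the lower library at 12 days off, 185 CPM, above the higher one at day 0, 97.4 CPM. The climb ran through the 12 days: log2 folds against day 0 were 0.45 ± 0.15 at 4 days off, 0.95 ± 0.15 at 8 and 1.18 ± 0.15 at 12. The call at 4 days off (edgeR adjusted p = 0.0292) was lost without replicate B of day 0 (edgeR adjusted p = 0.214) or without replicate A of 4 days off (edgeR adjusted p = 0.435). The mouse genome holds a processed pseudogene of Trp53, and no source used here states how reads shared with it were counted.

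Mdm2 (Entrez 17246, chromosome 10, 117688875 to 117710758, minus strand), the ligase that marks p53 for destruction and is itself a p53 target, was nearly level while Trp53 moved. It had 232 and 221 CPM at day 0, 230 and 224 CPM at day 4, 219 and 220 CPM at day 8, and 206 and 197 CPM at day 12. Withdrawal brought 255 and 223 CPM at 4 days, 201 and 190 CPM at 8 days and 151 and 175 CPM at 12 days. The libraries of 12 days off were the lowest of all, below every other library, and those of 4 days off overlapped day 0 and day 4. Mdm2 did not pass the test at day 4, 8 or 12 against day 0, except at day 12 with scaling by library size alone (edgeR adjusted p = 0.0194). By 12 days off it was lower than at day 0 (log2 fold -0.48 ± 0.10, edgeR adjusted p = 0.00171) and than at day 12 (log2 fold -0.31 ± 0.10, edgeR adjusted p = 0.0154). The second of these calls was lost without replicate A of day 12 (edgeR adjusted p = 0.0952), without replicate A of 12 days off (edgeR adjusted p = 0.0805), and with scaling by library size alone (edgeR adjusted p = 0.101). In a fit of the 4 libraries alone both were lost (edgeR adjusted p = 0.117 against day 0 and 0.128 against day 12).

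Per kilobase of transcript, which allows levels of different genes to be set side by side, Mdm2 was the most abundant of the 9, with a mean of 69.1 RPKM over the 16 libraries. Trp53 averaged 52.1 RPKM, Sesn1 36.2, Cdkn1a 29.7, Phlda3 22.1, Ccng1 19.1, Trp53inp1 14.4, Aen 8.48 and Zmat3 0.0412 RPKM. The order of Trp53 and Mdm2 turned over along the course. Trp53 had 24.0 and 23.0 RPKM at day 4, where Mdm2 had 76.1 and 73.9 RPKM. At 12 days off Trp53 had 117 and 99.2 RPKM, where Mdm2 had 49.8 and 57.7 RPKM.

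Cdkn1a (Entrez 12575, chromosome 17, 29090979 to 29100722, plus strand) encodes p21, the inhibitor of cyclin-dependent kinases that carries the p53 arrest. It had 30.2 and 24.1 CPM at day 0, 56.6 and 57.9 CPM at day 4, 50.7 and 67.5 CPM at day 8, and 57.8 and 59.3 CPM at day 12. After the drug was removed it had 57.6 and 39.9 CPM at 4 days, 95.4 and 63.1 CPM at 8 days and 99.0 and 75.5 CPM at 12 days. Both day 0 libraries were below all others, the groups of total cells on doxycycline overlapped each other, and the replicates lay far apart after withdrawal. Cdkn1a was 2.15-fold higher at day 12 than at day 0 (log2 fold 1.10 ± 0.22, edgeR adjusted p = 0.000495), at a time when Trp53 was lower, and 3.20-fold higher at 12 days off than at day 0 (log2 fold 1.68 ± 0.22, edgeR adjusted p = 3.6e-05), when Trp53 was higher. At 4 days off its call against day 0 (log2 fold 0.84 ± 0.22, edgeR adjusted p = 0.00818) was lost without replicate B of day 0 (edgeR adjusted p = 0.08) or without replicate A of 4 days off (edgeR adjusted p = 0.0989). The further rise of 12 days off over day 12 was small (log2 fold 0.58 ± 0.21, edgeR adjusted p = 0.0258). That call was lost without replicate A or B of day 12 (edgeR adjusted p = 0.101 and 0.0817), without replicate A of 12 days off (edgeR adjusted p = 0.199), and in a fit of the 4 libraries alone (edgeR adjusted p = 0.0515). A second annotated transcript, AC167363.2, overlaps 273 of the 3553 exonic bases of Cdkn1a (7.68%) on the opposite strand, and whether the counting used strand is not given, so reads from that stretch cannot be told apart.

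Ccng1 (Entrez 12450, chromosome 11, 40748552 to 40755309, minus strand) encodes cyclin G1, a p53 target that brings protein phosphatase 2A to Mdm2. It had 54.8 and 61.1 CPM at day 0, 80.04 and 82.8 CPM at day 4, 73.8 and 71.4 CPM at day 8 and 75.9 and 73.4 CPM at day 12. Withdrawn cells had 49.4 and 52.4 CPM at 4 days, 56.6 and 55.9 CPM at 8 days and 63.5 and 66.4 CPM at 12 days. All libraries on doxycycline were above all libraries off it. The change was modest: Ccng1 was 1.41-fold higher at day 4 than at day 0 (log2 fold 0.49 ± 0.09, edgeR adjusted p = 0.000364) and 1.29-fold higher at day 12 (log2 fold 0.37 ± 0.09, edgeR adjusted p = 0.00319). Its call at day 8 against day 0 (log2 fold 0.32 ± 0.09, edgeR adjusted p = 0.00839) was lost without replicate A of day 0 (log2 fold 0.25) or without replicate A of day 8 (log2 fold 0.30). Within 4 days of withdrawal Ccng1 was lower than at day 12 (log2 fold -0.55 ± 0.09, edgeR adjusted p = 0.000396). Ccng1 at 12 days off did not pass the test against day 0 (log2 fold 0.16 ± 0.09, edgeR adjusted p = 0.173).

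Trp53inp1 (Entrez 60599, chromosome 4, 11156441 to 11174379, plus strand), a stress protein that acts with p53 and in autophagy, showed the largest rise of the 9 on doxycycline. It had 39.3 and 41.1 CPM at day 0, 129 and 132 CPM at day 4, 104 and 91.1 CPM at day 8 and 98.3 and 101 CPM at day 12. Once the drug was removed it had 60.5 and 60.2 CPM at 4 days, 46.9 and 39.9 CPM at 8 days and 53.7 and 63.2 CPM at 12 days. Every library on doxycycline exceeded every library off it, with no overlap between the 2 sets. Trp53inp1 was 3.25-fold higher at day 4 than at day 0 (log2 fold 1.70 ± 0.12, edgeR adjusted p = 1.55e-08) and 2.48-fold higher at day 12 (log2 fold 1.31 ± 0.12, edgeR adjusted p = 1.98e-07). Trp53inp1 at 12 days off was lower than at day 12 (log2 fold -0.77 ± 0.11, edgeR adjusted p = 2.88e-05) and higher than at day 0 (log2 fold 0.54 ± 0.11, edgeR adjusted p = 0.00156), a call lost in a fit of the 4 libraries alone (edgeR adjusted p = 0.085). At 8 days off it did not pass the test against day 0 (log2 fold 0.11 ± 0.12, edgeR adjusted p = 0.493).

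**Figure D2:**
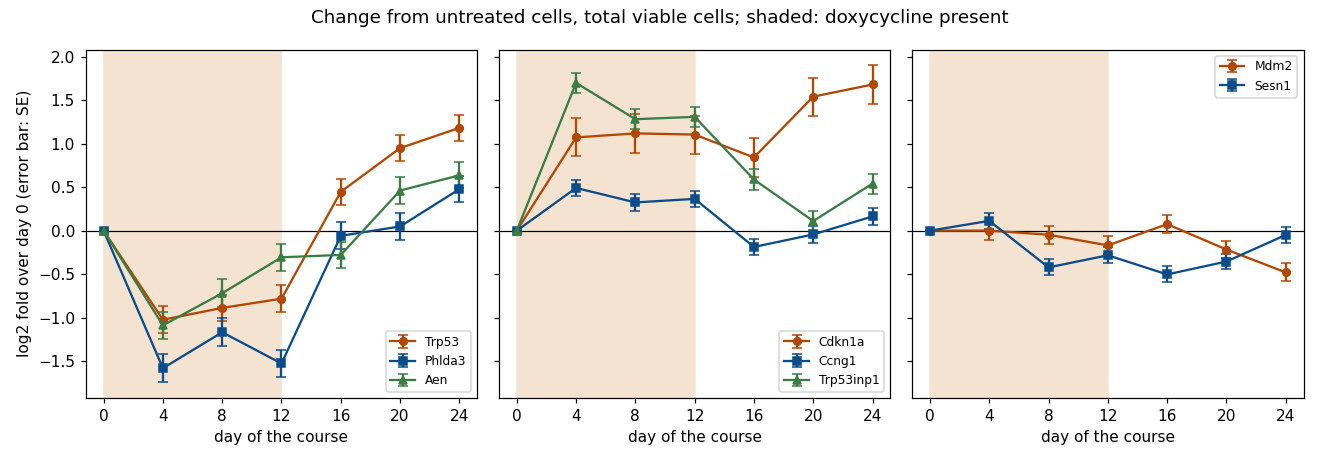
Log2 fold of the group mean over day 0 (y axis; error bars are the SE of the edgeR fit over 16 libraries) against the day of the course (x axis), for total viable cells, with the doxycycline period shaded. Trp53, Phlda3 and Aen lie below 0 on the drug, where Cdkn1a, Ccng1 and Trp53inp1 lie above it, and Trp53 and Cdkn1a end at 1.18 and 1.68.

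Phlda3 (Entrez 27280, chromosome 1, 135766085 to 135769134, plus strand) encodes a small pleckstrin-homology protein that competes with AKT for membrane lipids and so restrains AKT. It had 37.4 and 50.8 CPM at day 0, 15.1 and 14.4 CPM at day 4, 19.5 and 19.6 CPM at day 8 and 15.6 and 14.9 CPM at day 12. The withdrawn cells had 45.1 and 39.3 CPM at 4 days, 46.9 and 44.1 CPM at 8 days and 70.6 and 52.0 CPM at 12 days. The highest library on doxycycline, 19.6 CPM, was below the lowest one off it, 37.4 CPM. Phlda3 was 2.88-fold lower at day 12 than at day 0 (log2 fold -1.53 ± 0.16, edgeR adjusted p = 1.16e-06) and 4.01-fold higher at 12 days off than at day 12 (log2 fold 2.004 ± 0.16, edgeR adjusted p = 6.35e-08). Its log2 folds at 4 and 8 days off against day 0 were -0.06 ± 0.15 and 0.05 ± 0.15, where those of Trp53 were 0.45 and 0.95. The call at 12 days off against day 0 (log2 fold 0.48 ± 0.15, edgeR adjusted p = 0.0192) was lost without replicate A of day 0 (edgeR adjusted p = 0.232), without replicate A of 12 days off (edgeR adjusted p = 0.163) and in a fit of the 4 libraries alone (edgeR adjusted p = 0.186).

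Aen (Entrez 68048, chromosome 7, 78895927 to 78911209, plus strand), a nuclease that p53 induces during apoptosis, had a slower course. It had 24.8 and 22.7 CPM at day 0, 11.5 and 10.8 CPM at day 4, 11.8 and 17.1 CPM at day 8 and 17.4 and 21.0 CPM at day 12. After withdrawal it had 18.5 and 20.7 CPM at 4 days, 33.1 and 32.4 CPM at 8 days and 38.6 and 35.3 CPM at 12 days. The low point was day 4, and part of the fall was regained while the drug was still present. Aen was 2.13-fold lower at day 4 than at day 0 (log2 fold -1.09 ± 0.16, edgeR adjusted p = 2.83e-05), but its log2 fold at day 12 was -0.31 ± 0.15, which did not pass (edgeR adjusted p = 0.0915) except with scaling by library size alone (edgeR adjusted p = 0.0173). A comparison of day 12 with day 4, added after seeing the data, gave a log2 fold of 0.78 ± 0.15 (edgeR adjusted p = 0.00203). At 4 days off Aen overlapped day 12, and at 12 days off it was 1.92-fold higher than at day 12 (log2 fold 0.94 ± 0.15, edgeR adjusted p = 6.1e-05) and 1.55-fold higher than at day 0 (log2 fold 0.64 ± 0.15, edgeR adjusted p = 0.00323), of which the second was lost in a fit of the 4 libraries alone (edgeR adjusted p = 0.0548). Its call at 8 days off against day 0 (log2 fold 0.46 ± 0.15, edgeR adjusted p = 0.0283) was lost when any 1 of the 4 libraries was left out, with edgeR adjusted p from 0.0734 to 0.14.

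Sesn1 (Entrez 140742, chromosome 10, 41810574 to 41908436, plus strand) encodes sestrin 1, a stress protein that restrains the mTORC1 growth pathway. It had 146 and 133 CPM at day 0, 155 and 147 CPM at day 4, 107 and 102 CPM at day 8 and 113 and 116 CPM at day 12. After withdrawal it had 98.6 and 98.5 CPM at 4 days, 111 and 107 CPM at 8 days and 137 and 133 CPM at 12 days. The 4 libraries of day 0 and day 4 and the 2 of 12 days off stood above the 8 others from total cells. Sesn1 was lower at day 8 than at day 0 (log2 fold -0.42 ± 0.09, edgeR adjusted p = 0.00113) and at 4 days off than at day 0 (log2 fold -0.50 ± 0.09, edgeR adjusted p = 0.00066). Its log2 fold at 12 days off against day 0 was -0.05 ± 0.09 (edgeR adjusted p = 0.693). Its call at day 12 against day 0 (log2 fold -0.28 ± 0.09, edgeR adjusted p = 0.0134) was lost without replicate A of day 0, A of day 12 or B of day 12, with edgeR adjusted p of 0.0965, 0.087 and 0.0515. Its call at 12 days off against day 12 (log2 fold 0.23 ± 0.09, edgeR adjusted p = 0.0342) was lost without replicate A or B of day 12 or A of 12 days off, with edgeR adjusted p of 0.155, 0.0946 and 0.057, and in a fit of the 4 libraries alone (edgeR adjusted p = 0.166).

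Zmat3 (Entrez 22401, chromosome 3, 32334792 to 32365665, minus strand), which encodes an RNA-binding zinc-finger protein, was barely detected. Its libraries held 14 and 4 reads at day 0, 13 and 13 at day 4, 5 and 4 at day 8, and 10 and 10 at day 12. After withdrawal they held 3 and 4 reads at 4 days, 1 and 3 at 8 days and 2 and 6 at 12 days. Every gene in the deposited tables had at least 0.501 CPM in 3 or more libraries, and Zmat3 reached that through replicate A of day 0 and the day 4 libraries. It was called lower at 8 days off against day 12 (edgeR adjusted p = 0.0129) and at 8 and 12 days off against day 0 (edgeR adjusted p = 0.00968 and 0.0467). The first of these was no longer called without replicate A of day 12 (edgeR adjusted p = 0.0531), without replicate A of 8 days off (edgeR adjusted p = 0.103) or by DESeq2 (adjusted p = 0.0529). Without replicate A of day 0, the other two were no longer called (edgeR adjusted p = 0.241 and 0.617), and that at 12 days off was also lost with RLE factors (edgeR adjusted p = 0.0521) and by DESeq2 (adjusted p = 0.182). As the gene is listed through its highest libraries, lower calls elsewhere depend on that selection, and nothing is read from them or from a fold of so few reads.

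Read over all 9 genes, about as large a share was called on doxycycline as in the whole transcriptome, with both directions represented. At day 4 against day 0, 3 of the 9 were higher (Cdkn1a, Ccng1 and Trp53inp1) and 3 lower (Trp53, Phlda3 and Aen), where 59.2% of all genes were called, 28.2% higher and 31% lower. At day 8, 3 were higher and 4 lower, with 57.3% of all genes called, 27% higher and 30.2% lower. Day 12 had 3 higher and 3 lower, with 63.4% of all genes called, 30% higher and 33.4% lower. Set against day 12, the cells of 12 days off had 5 higher (Trp53, Phlda3, Aen, Cdkn1a and Sesn1) and 2 lower (Mdm2 and Trp53inp1), with 65.3% of all genes called, 32.9% higher and 32.4% lower. Against day 0 they had 5 higher and 2 lower, 1 of these being Zmat3, with 43.6% called, 21.6% higher and 22% lower. In fits of the 4 libraries alone, 12 days off against day 12 called 4 of the 9, and the comparison with day 0 called 2. The median log2 fold of the 9 was -0.28 at day 12 against day 0, where that of all genes was -0.07, and 0.23 at 12 days off against day 12, where that of all genes was 0.00.

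**Figure D3:**
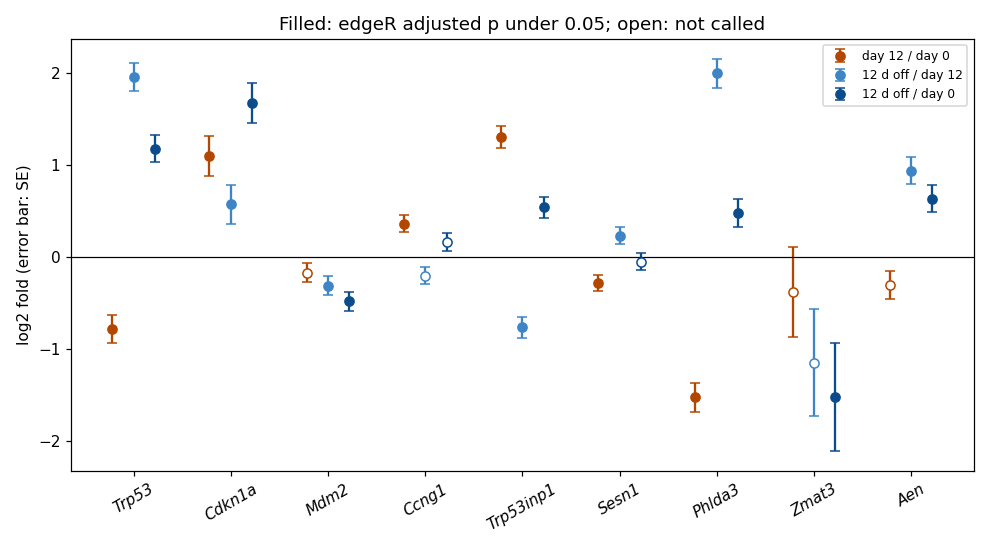
Log2 folds (y axis; error bars are the SE) of the 9 genes (x axis) at day 12 over day 0, at 12 days off over day 12 and at 12 days off over day 0, with filled points for an edgeR adjusted p under 0.05. Trp53, Phlda3, Aen, Sesn1, Trp53inp1 and Ccng1 change sign between the first comparison and the second, with -0.78 and 1.96 for Trp53. Of these, Aen was not called in the first and Ccng1 not in the second. Cdkn1a is above 0 in all 3 comparisons, and Mdm2 and Zmat3 are below 0 in all 3.

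The intermediate times after withdrawal filled in the order of events. At 4 days off against day 12, Trp53 (log2 fold 1.23 ± 0.15, edgeR adjusted p = 2.59e-05) and Phlda3 (1.47 ± 0.16, edgeR adjusted p = 7.25e-06) were already higher and Ccng1 and Trp53inp1 lower, while Aen and Cdkn1a were not called. There, 36.8% of all genes were called, 18% higher and 18.8% lower. At 8 days off, Aen had joined the higher genes (log2 fold 0.77 ± 0.15, edgeR adjusted p = 0.000516), with 3 higher and 3 lower among the 9, Zmat3 included, and 55.9% of all genes called, 28.7% higher and 27.2% lower. Against day 0, 3 were higher and 1 lower at 4 days off, with 37.9% of all genes called, 18.8% higher and 19.1% lower. At 8 days off 3 were higher and 2 lower, 1 of these being Zmat3, with 33.1% called, 16.2% higher and 16.9% lower. A comparison of 12 with 4 days off, added after seeing the data, called 6 higher (Trp53, Cdkn1a, Aen, Phlda3, Sesn1 and Ccng1) and Mdm2 lower, with 47.1% of all genes called, 23.5% in each direction. In that comparison Trp53 differed by a log2 fold of 0.73 ± 0.15 (edgeR adjusted p = 0.00104), Aen by 0.92 ± 0.15 (edgeR adjusted p = 0.000223), Cdkn1a by 0.84 ± 0.21 (edgeR adjusted p = 0.0052) and Mdm2 by -0.55 ± 0.10 (edgeR adjusted p = 0.00055). The Cdkn1a call there was lost without replicate B of 4 days off or A of 12 days off (edgeR adjusted p = 0.0705 and 0.0526). In a fit of the 4 libraries alone 2 of these 7 genes were called, and Trp53, Mdm2, Sesn1, Phlda3 and Ccng1 were not (edgeR adjusted p = 0.0593, 0.0808, 0.108, 0.118 and 0.198). Phlda3, with a log2 fold of 0.54 ± 0.15 (edgeR adjusted p = 0.00935), lost its call without the same 2 libraries (edgeR adjusted p = 0.0879 and 0.0924). Between day 12 and day 4, where 27% of all genes were called, 14.7% higher and 12.3% lower, Aen was higher and Sesn1 and Trp53inp1 lower. The Trp53inp1 call was lost when any 1 of the 4 libraries was left out (edgeR adjusted p from 0.0624 to 0.115), and the Sesn1 call without replicate A of day 12 (edgeR adjusted p = 0.0614).

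Sorting for Cd11b, the integrin chain encoded by Itgam that marks myeloid maturation, made little difference to these genes at day 12. Itgam itself had 884 and 940 CPM in Cd11b-high cells, against 719 and 670 CPM in total cells. In the fit of all libraries 0 genes were called higher in Cd11b-high cells, so Itgam was not called either. Trp53 had 48.3 and 49.8 CPM in Cd11b-high cells, against 50.7 and 52.99 CPM in total cells. Cdkn1a had 59.6 and 68.6 CPM in Cd11b-high cells, against 57.8 and 59.3 CPM in total cells. The log2 folds were -0.08 ± 0.15 for Trp53 and 0.13 ± 0.21 for Cdkn1a, and those of Mdm2, Ccng1, Sesn1, Trp53inp1 and Phlda3 lay between -0.04 and 0.09, with -0.17 ± 0.15 for Aen. Zmat3 had 6 and 7 reads in Cd11b-high cells, against 10 and 10 in total cells. None of the 9 was called by edgeR (0 at an unadjusted p under 0.05 as well), nor by DESeq2 or limma-voom, and 0.0146% of all genes were called. As total cells at day 12 already had high Itgam, the comparison sets a sorted fraction against a population that contains it.

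Phlda3 and Aen were the closest of the 9 to Trp53 in their course, and Trp53inp1 and Ccng1 the most opposed. Across the 8 group means of log2(CPM + 1), Pearson's r with Trp53 was 0.95 for Phlda3 and 0.91 for Aen, and -0.81 for Trp53inp1 and -0.76 for Ccng1. It was 0.26 for Cdkn1a, -0.50 for Mdm2, -0.07 for Sesn1 and -0.73 for Zmat3, whose values rest on few reads. Trp53inp1 and Ccng1 had an r of 0.87 with each other. These values describe 8 points that share the doxycycline schedule and the same libraries. Of 9096 named genes averaging 10 CPM or more, the 3 closest to Trp53 were Zfp768 (r = 0.9948), Mif (0.9945) and Phf10 (0.9927). Zfp768, a zinc-finger gene, stood at 22.8 ± 2.33 CPM at day 12 and 50.7 ± 3.34 CPM at day 0, and at 131 ± 12.4 CPM at 12 days off (SD, n = 2 each). Mif, which encodes a cytokine and has several pseudogene copies in the mouse that can share its reads, stood at 52.1 ± 0.759 CPM at day 12 and 106 ± 8.69 CPM at day 0, and at 483 ± 134 CPM at 12 days off. The 3 closest to Cdkn1a were Itgb1 (r = 0.9913), Tsnax (0.9844) and Srsf9 (0.9751). Itgb1, the integrin beta 1 chain, stood at 255 ± 7.64 CPM at day 12 and 175 ± 1.05 CPM at day 0, and at 305 ± 30.4 CPM at 12 days off.

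Other genes of the pathway also held calls in both directions, with an overall share called near or below that of all genes. Of 37 further p53 targets held, in 4 lists of arrest, apoptosis, DNA repair and metabolic genes, 12 were higher and 8 lower at day 12 than at day 0, and 17 were not called, where 30% of all genes were higher and 33.4% lower. At 12 days off against day 12, 8 were higher, 15 lower and 14 not called, where 32.9% of all genes were higher and 32.4% lower. Their median log2 fold was -0.03 at day 12 against day 0 and -0.23 at 12 days off against day 12, against -0.07 and 0.00 for all genes.

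Several target genes were, like Trp53inp1, higher at day 12 than at day 0 and than at 12 days off, though their courses between these times differed. Apaf1, the scaffold of the apoptosome, had 231 CPM at day 12 and 76.2 CPM at day 0 (log2 fold 1.60 ± 0.15, edgeR adjusted p = 4.14e-07), and 54.2 CPM at 12 days off. Btg2, an antiproliferative gene, had 103 CPM at day 12 and 38.1 CPM at day 0 (log2 fold 1.43 ± 0.15, edgeR adjusted p = 9.27e-07), and 44.9 CPM at 12 days off. Pmaip1, which encodes the BH3-only death protein Noxa, had 49.4 CPM at day 12 and 19.3 CPM at day 0 (log2 fold 1.36 ± 0.11, edgeR adjusted p = 1.23e-07), and 25.1 CPM at 12 days off. Sfn, Dram1, Prkab1 and Polh were also higher at day 12 than at day 0, with log2 folds from 0.62 to 1.95, and all 7 were lower at 12 days off than at day 12. These 7 had day 12 libraries that did not overlap those of day 0 or of 12 days off.

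Other targets were low on doxycycline, as Trp53 was, or changed in 1 phase. Psrc1, a microtubule-binding gene, had 4.91 CPM at day 12 and 13.2 CPM at day 0 (log2 fold -1.42 ± 0.20, edgeR adjusted p = 2.42e-05), and 13.1 CPM at 12 days off. Pidd1, which encodes a death-domain protein of the PIDDosome, was lower at day 12, with 55.5 CPM, than at day 0, with 129 CPM (log2 fold -1.21 ± 0.12, edgeR adjusted p = 8.44e-07). Unlike Trp53, Pidd1 had its lowest group mean at 12 days off, with 44.3 CPM, after 93.4 CPM at 4 days off and 61.9 CPM at 8. Bbc3, which encodes the death protein Puma, had 49.96 CPM at 12 days off, against 21.7 CPM at day 12 (log2 fold 1.201 ± 0.19, edgeR adjusted p = 6.37e-05), and Sesn2, a relative of Sesn1, had 71.7 CPM, against 38.3 CPM (log2 fold 0.90 ± 0.14, edgeR adjusted p = 4.58e-05). Ddb2, a DNA damage recognition gene, was lower at 12 days off, with 9.23 CPM, than at day 12, with 24.8 CPM (log2 fold -1.42 ± 0.16, edgeR adjusted p = 2.24e-06).

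**Figure D4:**
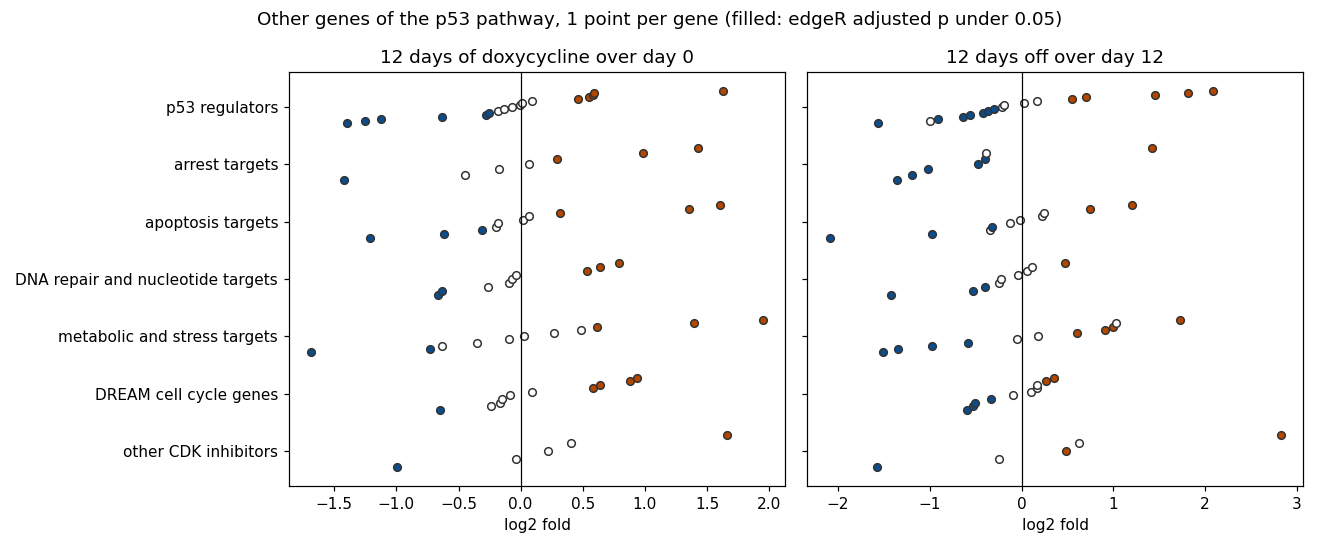
Log2 folds (x axis) of the other p53 pathway genes, 1 point per gene, by list (rows), at day 12 over day 0 (left) and at 12 days off over day 12 (right), with filled points for an edgeR adjusted p under 0.05. In both comparisons the apoptosis, DNA repair and metabolic lists hold called genes on either side of 0.

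Of the 17 regulators of p53 held, 5 were higher and 6 lower at day 12 than at day 0, and 5 were higher and 7 lower at 12 days off than at day 12, where 63.4% and 65.3% of all genes were called. Chek1, the checkpoint kinase, had 33.5 CPM at day 12 and 88.3 CPM at day 0 (log2 fold -1.40 ± 0.12, edgeR adjusted p = 1.99e-07). Cdkn2a, which encodes both the Mdm2 inhibitor Arf and the kinase inhibitor Ink4a in 1 count, had 28.8 CPM at 12 days off and 10.5 CPM at day 12 (log2 fold 1.45 ± 0.24, edgeR adjusted p = 9.49e-05). Rpl5 and Rpl11, ribosomal proteins that bind Mdm2 when ribosome assembly fails, were lower at day 12 than at day 0 (log2 folds -1.25 ± 0.23 and -1.13 ± 0.20) and higher at 12 days off than at day 12 (2.08 ± 0.23 and 1.82 ± 0.20), all 4 with edgeR adjusted p of 0.000263 or less. Ribosomal protein genes have many near-identical pseudogenes, so these counts are uncertain.

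Of 10 targets of the DREAM complex, the repressor through which p21 lowers mitotic genes, 4 were higher and 1 lower at day 12 than at day 0, where 30% of all genes were higher and 33.4% lower. At 12 days off against day 12, 2 were higher and 4 lower, where 32.9% of all genes were higher and 32.4% lower. Plk1, a mitotic kinase, had 115 CPM at day 12 and 62.2 CPM at day 0 (log2 fold 0.88 ± 0.12, edgeR adjusted p = 1.46e-05), and Bub1b, a spindle checkpoint kinase, had 119 CPM at day 12 and 62.3 CPM at day 0 (log2 fold 0.94 ± 0.11, edgeR adjusted p = 3.63e-06). Both were lower at 12 days off than at day 12 (log2 folds -0.60 ± 0.12 and -0.50 ± 0.11, edgeR adjusted p = 0.000405 and 0.000853). Among 5 other inhibitors of cyclin-dependent kinases, Cdkn2c followed the drug, with 23.3 CPM at day 12, 7.31 CPM at day 0 and 7.84 CPM at 12 days off. Cdkn1c rose after withdrawal, with 7.29 CPM at 12 days off and 1.02 CPM at day 12 (log2 fold 2.83 ± 0.31, edgeR adjusted p = 1.45e-06).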

How the data were processed

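RNA was sequenced from FACS-sorted AML246 cells on an Illumina NextSeq500, per the labels' protocols. The authors deposited 1 table per library with whole-number read counts per Entrez gene and gene lengths, per the file headers. featureCounts, edgeR, limma and mm10 are named in the submitters' processing notes; the aligner, versions and strand setting are not given in the sources used here. A RefSeq GRCm38.p6 gene table gave symbols for 13216 of 13652 genes.

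Titles gave 8 groups of 2 libraries, and p-values measure only the spread between these samples, which may be technical. After TMM scaling, the counts of all 16 libraries entered 1 model (edgeR 4.0.16, R 4.3.3, quasi-likelihood F test, robust, two-sided, 8 residual degrees of freedom, coefficient of variation 10.9%). The low-count filter removed 0 genes. The threshold was 0.05 after Benjamini-Hochberg adjustment over all 13652 genes. SE is the log2 fold over the square root of F, and RPKM divides CPM by the deposited length. The script was checked on simulated counts.

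All 9 genes were named in each of 10 comparisons, and 2 comparisons were added after seeing the data. From each pathway list, up to 3 called genes with the lowest adjusted p were named in day 12 against day 0 and 12 days off against day 12; some genes named by this rule are given only in a range or count. The 9 genes and the lists were chosen with earlier results of these data known, so their choice is not independent of them. Alternatives were RLE factors, library size alone, no filter, a mean of at least 1 CPM, DESeq2 1.42.0, limma-voom (limma 3.58.1), the 4 libraries compared alone, leaving out each library and a replicate block.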

Additional observations from a re-analysis of the deposited data

How the results depend on the processing

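The directions of Trp53, Cdkn1a, Phlda3 and Trp53inp1 at day 12 against day 0, and of Trp53, Phlda3, Aen and Trp53inp1 at 12 days off against day 12, kept their side of the threshold under every alternative run, as did Trp53 and Cdkn1a at 12 days off against day 0. With 2 libraries a group, leaving out 1 leaves a lone sample that is assumed to vary like the other groups. Depth limits Zmat3. Where results changed, the cause was not tested, apart from the smaller number of samples.

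The number of the 9 called fell in a fit of the 4 libraries alone to 4 at 12 days off against day 12, to 2 at 12 days off against day 0, and to 2 at 12 against 4 days off. Scaling by library size alone called 5 at day 12 against day 4. Leaving out 1 library gave 4 to 8 at 12 days off against day 12, 2 to 4 at 4 days off and 2 to 4 at 8 days off against day 0, and 1 to 2 at day 12 against day 4. The lowest of these counts came without replicate A of day 12 or A of 12 days off (4), A of 4 days off (2), A of day 0 (2) and A of day 12 (1).

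Signs turned only for values that were not called. With library size alone, log2 folds became 0.0965 (Mdm2) and 0.0715 (Sesn1) at 8 days off against day 12, and -0.105 (Cdkn1a) and -0.0844 (Phlda3) at day 12 against day 4. In Cd11b-high against total cells, Ccng1 became 0.0013 with RLE factors and 0.0016 with DESeq2. At 12 days off against day 0, Sesn1 became 0.000621 with a mean of at least 1 CPM. Leaving out 1 library gave, in Cd11b-high against total cells, -0.0519 to 0.0412 for Ccng1, -0.0445 to 0.023 for Mdm2, -0.0486 to 0.0219 for Sesn1 and -0.116 to 0.0247 for Trp53inp1. Against day 0 it gave -0.83 to 0.52 at day 12, -0.57 to 0.78 at day 4 and -1.35 to 0.0017 at day 8 for Zmat3; -0.0331 to 0.0704 at day 4 and -0.0251 to 0.168 at 4 days off for Mdm2; -0.27 to 0.18 at 4 days off and -0.16 to 0.28 at 8 days off for Phlda3; and -0.111 to 0.0545 at 12 days off for Sesn1. At 8 days off it gave -0.121 to 0.036 for Ccng1 and -0.00983 to 0.222 for Trp53inp1. At 4 days off against day 12 it gave -0.10 to 0.17 for Aen. At 12 against 4 days off it gave -0.123 to 0.0658 for Trp53inp1 and -0.97 to 0.41 for Zmat3.

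Library size alone moved the median log2 fold of all genes by -0.135 at day 12 against day 0, 0.117, 0.143 and 0.105 at 4, 8 and 12 days off against day 12, and -0.138 at day 12 against day 4. The share of higher genes among those called became 64.6% at 4 and 62.8% at 8 days off against day 12, in place of 48.9% and 51.3%, and 31.3% at day 12 against day 4, in place of 54.4%. Of all genes, 313 were called between Cd11b-high and total cells in a fit of the 4 libraries, 11 by DESeq2, 2 in the fit of all libraries and 1 by limma-voom. At 12 days off against day 0, 2160 were called in a fit of the 4 libraries, against 5950.

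Whether the replicate letters pair samples cannot be told from these data. The differences between A and B correlated over 0.1 in 8 of 28 pairs of groups and under -0.1 in 0. These correlations ran from -0.0907 to 0.264. With a replicate block, 6 of the 9 were called at day 12 against day 0, 7 at 12 days off against day 12 and 6 at 12 days off against day 0, where Zmat3 was lost (edgeR adjusted p = 0.0543); no other call of the 9 changed.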
